A study of Homo sapiens with 6 samples.

Results

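The genes described here encode the matrix metalloproteinases (MMP), the ADAM and ADAMTS proteases and the tissue inhibitors of metalloproteinases (TIMP) in 786-O, a human cell line long kept in culture that derives from a clear cell carcinoma of the kidney. They were taken by symbol: every row named MMP, ADAM or ADAMTS followed by a number, or TIMP1 to TIMP4, which gave 61 of the 18126 symbols in the tables (20 MMP, 18 ADAM, 19 ADAMTS and 4 TIMP genes). The symbol rule itself uses no measured value. RNA was sequenced in 6 libraries. The labels give 3 as siTEAD4, taken here as an siRNA transfection directed at the transcription factor gene TEAD4. The other 3 are labelled Control, taken here as the control transfection. No time after transfection is given. All 6 share the 786-O background, which is known to lack functional VHL. The headers of the value columns name the siTEAD4 libraries "Tead_Inhibitor" and Control 2 and Control 3 "Vehicle". That of Control 1 reads "gene_symbol" and names no treatment. The labels were followed here, and which treatment was given was not tested.

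The proteases with a catalytic site carry a zinc ion in it and are made as inactive precursors. Of the 18 ADAM members, 7 lack such a site. MMPs cut collagens, laminins, fibronectin and other matrix proteins; ADAMs sit in the cell membrane and release the outer parts of other membrane proteins, a step called shedding; ADAMTS enzymes are secreted and cut proteoglycans, procollagens and blood proteins. TIMPs bind the catalytic site and block it, and TIMP2 also helps the membrane-bound MMP14 to activate the MMP2 precursor. In kidney cancers these enzymes are studied for their part in matrix turnover and invasion.

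Expression is given as FPKM, which divides the fragments of a gene by its length and by the library's total, and the depth behind the values is unknown. TEAD4 stood at 8.92, 7.65 and 7.52 FPKM in siTEAD4 1, 2 and 3, against 12.52, 16.99 and 11.28 FPKM in Control 1, 2 and 3, or 59.1% of the Control mean (log2 fold change -0.68, limma adjusted p = 0.00521); a two-sided exact permutation test gave p = 0.1, the smallest that 3 against 3 libraries allow. All 8 renal carcinoma markers were tested, and the renal lineage factor gene PAX8 averaged 70.2 ± 0.975 FPKM in siTEAD4 and 76.6 ± 11.1 FPKM in Control (SD, n = 3 each). Of these markers the kidney cadherin gene CDH6 fell to 19.0% of the Control mean (-2.35, adjusted p = 3.42e-06) and PAX2 to 53.0% (-0.76, adjusted p = 0.00186), EPAS1 rose (0.32, adjusted p = 0.035), and 5 did not pass. Of 16 markers of leukocytes, endothelium and fibroblasts, 14 averaged below 1 FPKM in both groups; CD3E was at 0 in every siTEAD4 library and at most 0.04 FPKM in Control, and DCN was at 0 in all 6. The exceptions were CSF1R, at 1.23 and 1.81 FPKM in siTEAD4 and Control, and LUM, at 0.707 and 2.01 FPKM. The summed level of the leukocyte list was 2.07 to 2.77 FPKM in siTEAD4 and 2.96 to 3.57 FPKM in Control, that of the endothelial list 0.39 to 0.40 and 0.49 to 0.61 FPKM, and that of the fibroblast list 0.73 to 0.95 and 1.90 to 2.63 FPKM. The Control libraries differed among themselves with transcript length: across 11156 genes, the deviation of a library from its group mean had a Spearman correlation with length of 0.622 in Control 1, -0.577 in Control 2 and 0.129 in Control 3, against -0.211 to 0.220 in the siTEAD4 libraries. Results that rest on Control 1 or Control 2 are given with and without that library, and the part of this trend in them was not tested beyond that. The labels do not state whether replicate libraries were grown apart, and p-values reflect only how these libraries vary, which may be technical. In bulk RNA, fewer cells making a transcript and less of it per cell cannot be told apart.

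Most family members that 786-O cells expressed were lower in siTEAD4. Of the 61 genes, 30 had at least 1 FPKM in at least 3 libraries and were tested by limma on the log2(FPKM + 1) scale with Benjamini-Hochberg adjustment over all 11411 genes tested. Of these 30, 24 fell and 1, ADAMTS16, rose at an adjusted p under 0.05; 5 did not pass. Over all tested genes, 18.8% fell and 26.1% rose, 44.9% in either direction. The fall reached a log2 fold change of -1 or less in 10 members, where 3.29% of all tested genes fell that far. The median log2 fold change was -0.80 over the 30 members and 0.09 over all tested genes. MMP9, ADAM22 and ADAMTS13 passed the expression filter through the Control libraries alone, so they could only be found lower; among the other 27 members the counts were 21 lower and 1 higher. By subfamily, 10 of 11 tested MMP genes, 6 of 7 ADAM genes, 7 of 10 ADAMTS genes and 1 of 2 TIMP genes fell. Without MMP9, ADAM22 and ADAMTS13 these were 9 of 10 MMP, 5 of 6 ADAM and 6 of 9 ADAMTS genes. The 3 siTEAD4 libraries lay below all 3 Control libraries in 24 members and above them in 1, where 22.6% and 35.1% of all tested genes did so. These 24 include MMP9, ADAM22 and ADAMTS13. Rescaling every library to the same median moved the median of all tested genes to 0.02 and that of the members to -0.85, with 25 members lower and 1 higher. Of all 11411 tested genes, 2455 were lower and 2172 higher after rescaling.

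**Figure D1:**
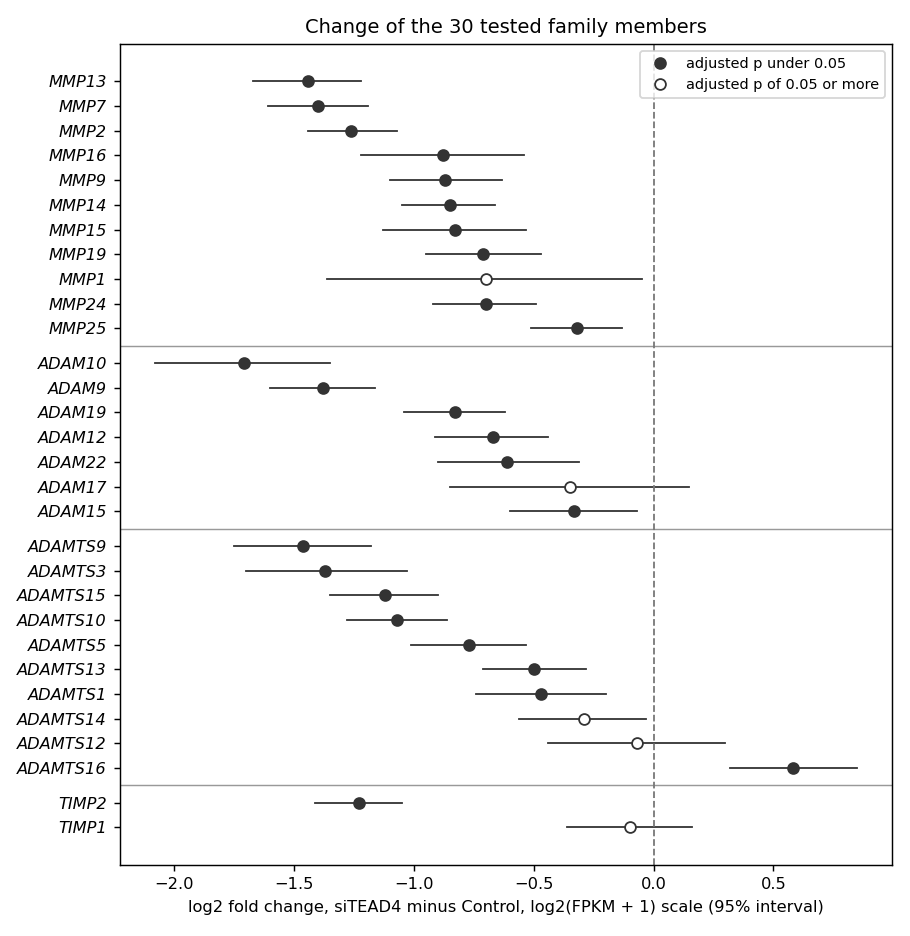
Log2 fold change of the 30 tested family members, siTEAD4 minus Control, on the log2(FPKM + 1) scale; points are limma estimates from 3 libraries per group, bars are 95% intervals, and filled points passed an adjusted p of 0.05. All points but that of ADAMTS16 (0.58) lie below 0, and ADAM10 (-1.71) lies farthest to the left.

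Since most of these genes moved together, the 250 bases before their transcription starts were read for short motifs of factors named in the series title or known to act with them, on both strands. RefSeq promoter sequences on GRCh38.p14 were at hand for 35 of the 61 members, 12 of which had fallen. The TEAD hexamer CATTCC stood in none of the 12 that fell and in 4 of the 35, against 11.9% of 35116 promoters. The AP-1 motif TGANTCA stood in 1 of the 12 and in 4 of the 35, against 6.57% of all promoters. The NF-kB consensus stood in 3 of the 12 (ADAM10, ADAM19 and ADAMTS3) and in 4 of the 35, against 9.96% of all promoters. A match describes these letters only, and none draws on binding data. Below are MMP7, the fallen member with the AP-1 motif, ADAM10, an abundant sheddase gene that fell, with an NF-kB match, and ADAM17, which did not pass the test and holds both a TEAD and an NF-kB match. Each is given 5′ to 3′ on the gene's strand, ending at the base before the start, with the matches in capitals.
MMP7 (chr11:102530748-102530997, minus strand): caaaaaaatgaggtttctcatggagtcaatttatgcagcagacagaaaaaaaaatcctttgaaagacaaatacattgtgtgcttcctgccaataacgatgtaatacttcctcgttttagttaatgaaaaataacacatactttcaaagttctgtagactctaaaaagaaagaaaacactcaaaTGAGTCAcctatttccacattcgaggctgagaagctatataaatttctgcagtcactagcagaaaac
ADAM10 (chr15:58749708-58749957, minus strand): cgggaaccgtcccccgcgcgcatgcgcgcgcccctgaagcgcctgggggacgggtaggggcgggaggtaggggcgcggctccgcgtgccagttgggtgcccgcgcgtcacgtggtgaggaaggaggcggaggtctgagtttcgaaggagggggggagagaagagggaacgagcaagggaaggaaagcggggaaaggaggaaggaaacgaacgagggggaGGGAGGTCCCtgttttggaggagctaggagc
ADAM17 (chr2:9555831-9556080, minus strand): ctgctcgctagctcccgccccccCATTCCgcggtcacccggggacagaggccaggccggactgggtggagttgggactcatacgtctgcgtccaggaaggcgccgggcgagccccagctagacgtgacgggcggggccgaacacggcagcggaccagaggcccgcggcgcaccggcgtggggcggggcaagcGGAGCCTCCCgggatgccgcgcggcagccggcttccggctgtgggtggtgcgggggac
The AP-1 match of MMP7 covers bases 67 to 61 before its start, and the NF-kB match of ADAM10 covers bases 31 to 22. In ADAM17 the TEAD match covers bases 227 to 222 and the NF-kB match bases 58 to 49. MMP10, which was hardly detected in these cells, has its AP-1 match at the same distance as MMP7, bases 67 to 61.

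The most abundant proteases were MMP2 and MMP14, and both fell together with the inhibitor TIMP2, the components of the step that activates MMP2 on the cell surface. MMP2, gelatinase A (GRCh38 chromosome 16, 55389700 to 55506691, plus strand), measured 115.2, 115.66 and 108.03 FPKM in siTEAD4 1, 2 and 3, against 251.24, 279.66 and 283.35 FPKM in Control 1, 2 and 3. The groups lay far apart, with the siTEAD4 mean at 41.6% of the Control mean (log2 fold change -1.26 ± 0.0814, SE; adjusted p = 1.12e-05 in limma). MMP14, the membrane-type enzyme (chromosome 14, 22836557 to 22849027, plus strand), stood at 116.87, 115.0 and 115.05 FPKM in siTEAD4 and 188.71, 226.89 and 216.06 FPKM in Control. The siTEAD4 libraries were almost equal and all below Control, at 54.9% of its mean (-0.85 ± 0.0874, adjusted p = 0.000119). TIMP2 (chromosome 17, 78852977 to 78925387, minus strand) stood at 19.7, 18.09 and 20.56 FPKM in siTEAD4 and 47.26, 45.74 and 47.62 FPKM in Control. It fell to 41.5% of the Control mean (-1.23 ± 0.0786, adjusted p = 1.08e-05), a share close to that of MMP2.

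TIMP1 was the most abundant inhibitor and did not follow. TIMP1 (chromosome X, 47582313 to 47586789, plus strand) stood at 174.85, 177.13 and 193.02 FPKM in siTEAD4 and 170.96, 231.09 and 187.44 FPKM in Control, and the groups overlapped. Its log2 fold change was -0.10, with a 95% interval of -0.36 to 0.16 (adjusted p = 0.492), and 0.02 without Control 2 (adjusted p = 0.824). TIMP4 was at the edge of detection, with 0.90, 1.07 and 1.11 FPKM in siTEAD4 against 0.62, 0.68 and 0.51 FPKM in Control, and did not enter the test; the siTEAD4 libraries were the higher ones. With no expression filter it passed (0.34, adjusted p = 0.0101). TIMP3, which binds to the matrix, had no more than 0.04 FPKM in any library. TIMP1 made up 89.9% ± 0.398 of the summed TIMP FPKM in siTEAD4 and 80.3% ± 2.66 in Control (SD, n = 3 each).

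Ratios within a library do not depend on how libraries are scaled, and they show which transcripts fell in step. These ratios were picked after the values had been seen, so they are given without a test. MMP2 over TIMP2 was 5.85, 6.39 and 5.25 in siTEAD4 and 5.32, 6.11 and 5.95 in Control, so the groups overlapped. MMP14 over TIMP2 was 5.93, 6.36 and 5.60 in siTEAD4 and 3.99, 4.96 and 4.54 in Control, higher in every siTEAD4 library. MMP2 over TIMP1 was 0.659, 0.653 and 0.560 in siTEAD4 and 1.47, 1.21 and 1.51 in Control, lower in every siTEAD4 library. MMP2 over MMP14 was 0.986, 1.01 and 0.939 in siTEAD4 and 1.33, 1.23 and 1.31 in Control. Summed over the 20 MMP genes, FPKM came to 270 ± 5.36 in siTEAD4 and 575 ± 37.9 in Control (SD, n = 3 each); MMP2 and MMP14 held 84.6% and 83.8% of these sums.

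**Figure D2:**
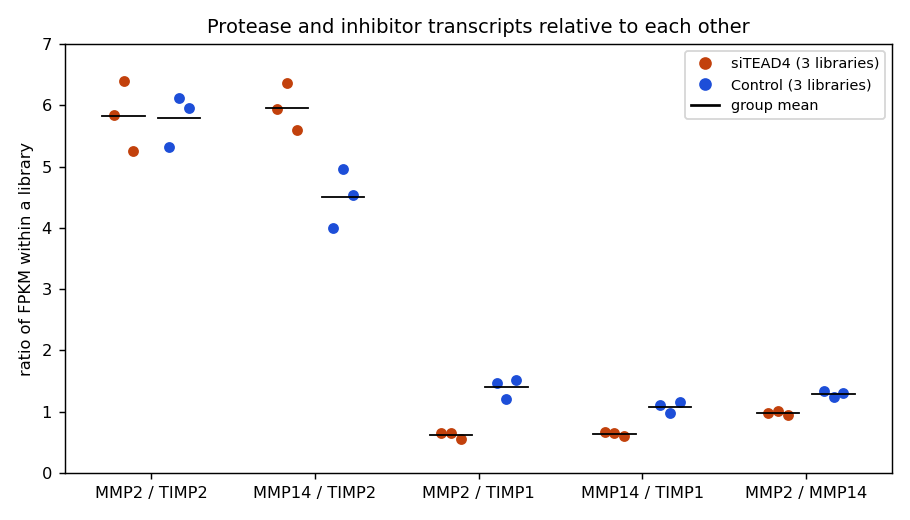
Ratio of the FPKM values of a protease and an inhibitor, or of 2 proteases, within each library; points are libraries, 3 siTEAD4 left of 3 Control, and lines are group means. MMP2 over TIMP2 overlaps between the groups (means 5.83 and 5.79), while MMP2 over TIMP1 and MMP14 over TIMP1 lie lower in all siTEAD4 libraries.

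Among the secreted collagenases and the matrilysin, the expressed genes lie in a run of MMP genes on chromosome 11, with other members between them. There, 8 MMP members follow each other between MMP7 (start 102520508) and MMP13 (end 102955734), all on the minus strand, and 3 of them, MMP7, MMP1 and MMP13, passed the filter; the other 5 reached at most 0.08 FPKM in any library. MMP7, matrilysin, a small MMP typical of epithelial cells, stood at 14.86, 15.58 and 12.79 FPKM in siTEAD4 and 41.09, 39.42 and 38.3 FPKM in Control, 36.4% of the Control mean (-1.40 ± 0.0910, adjusted p = 1.12e-05). MMP13, collagenase 3, stood at 2.30, 2.42 and 2.32 FPKM in siTEAD4 and 8.98, 7.10 and 8.34 FPKM in Control, 28.8% of the Control mean (-1.44 ± 0.1002, adjusted p = 1.71e-05). Both were lower in every siTEAD4 library than in any Control library. MMP1, interstitial collagenase, was not uniform: it stood at 0.62, 0.69 and 2.83 FPKM in siTEAD4 and 2.56, 2.25 and 2.92 FPKM in Control. siTEAD4 3 lay among the Control libraries, and the log2 fold change of -0.70 did not pass (95% interval -1.36 to -0.05, adjusted p = 0.0761). Without siTEAD4 3 it was -1.11 (adjusted p = 0.000715), and with the length and GC trend of each library removed, a setting chosen after seeing the data, -0.82 (adjusted p = 0.0248). MMP7 and MMP13 showed no such library.

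All 5 tested membrane-type MMP genes fell, with log2 fold changes between -0.88 and -0.32. Besides MMP14 these were MMP24, MMP15, MMP16 and MMP25, and MMP17 was low, at 0.633 ± 0.121 FPKM in siTEAD4 and 0.873 ± 0.220 FPKM in Control (SD, n = 3 each). MMP24, known mainly from neurons, stood at 15.27, 15.83 and 15.77 FPKM in siTEAD4 and 23.93, 29.51 and 25.12 FPKM in Control (-0.70, adjusted p = 0.00049 in limma). The reads of MMP24 are uncertain, since its exons overlap MMP24OS on the other strand (15.5 FPKM in siTEAD4 and 16.5 FPKM in Control on average) and the treatment of strand is not given in the sources used here. Exons of 14 tested members overlap another annotated gene, MMP24, MMP2, TIMP2, ADAM10 and ADAM17 among them. What such reads add to their values was not tested. MMP15 stood at 1.93, 1.71 and 1.31 FPKM in siTEAD4 and 3.01, 4.35 and 3.79 FPKM in Control (-0.83, adjusted p = 0.00128). MMP16 stood at 1.18, 1.23 and 1.27 FPKM in siTEAD4 and 4.05, 2.22 and 3.24 FPKM in Control (-0.88, adjusted p = 0.0018). In these genes the groups did not overlap, and Control was the more spread group in each. MMP25, which is held in the membrane by a lipid anchor, had the smallest fall, with 1.13, 1.09 and 1.00 FPKM in siTEAD4 and 1.52, 1.61 and 1.63 FPKM in Control (-0.32, adjusted p = 0.0131). That call ended without siTEAD4 2 (adjusted p = 0.0501), without siTEAD4 3 (0.0629) and after removing the length and GC trend (-0.16, adjusted p = 0.160).

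The remaining tested MMP genes were MMP9 and MMP19. MMP9, gelatinase B, stood at 0.50, 0.80 and 0.54 FPKM in siTEAD4 and 1.72, 1.95 and 2.14 FPKM in Control, 31.7% of the Control mean (-0.87, adjusted p = 0.000299). With a pseudocount of 0.1 in place of 1 its log2 fold change was -1.53 (adjusted p = 0.000416). MMP19 stood at 2.36, 2.54 and 2.02 FPKM in siTEAD4 and 3.83, 4.75 and 4.67 FPKM in Control (-0.71, adjusted p = 0.000915). Neither gene overlapped between the groups, and MMP9 reached 1 FPKM in the Control libraries alone. The stromelysin genes MMP3, MMP10 and MMP11 were low in both groups.

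**Figure D3:**
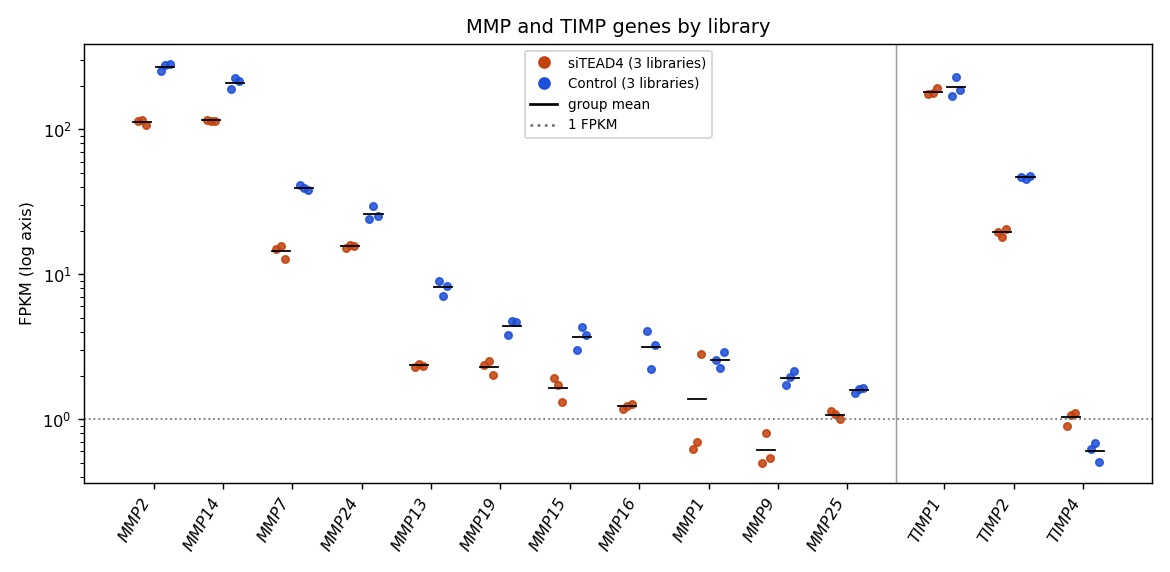
FPKM (log axis) of the 11 MMP and 3 TIMP genes with a group mean of at least 1 FPKM, in the 3 siTEAD4 libraries (left of each pair) and the 3 Control libraries (right); lines are group means and the dotted line is 1 FPKM. The siTEAD4 points lie below the Control points in all MMP genes but MMP1, whose highest siTEAD4 point (2.83) lies among the Control points, while TIMP1 overlaps and TIMP4 is higher in siTEAD4.

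Among the ADAM genes, the abundant sheddases ADAM9 and ADAM10 fell most. ADAM10, which releases Notch receptors and the amyloid precursor protein (chromosome 15, 58588807 to 58749978, minus strand), stood at 21.26, 20.96 and 22.22 FPKM in siTEAD4 and 90.15, 54.54 and 77.91 FPKM in Control. It held 28.9% of the Control mean (-1.71 ± 0.160, adjusted p = 7.36e-05), the furthest fall among the 30 members on the log2(FPKM + 1) scale. As a share of the Control mean ADAMTS3 (26.4%) and MMP13 (28.8%) stood lower, and with a pseudocount of 0.1 ADAMTS3 (-1.82) fell further than ADAM10 (-1.75). ADAM9 (chromosome 8, 38996869 to 39105144, plus strand), a broad sheddase, stood at 39.06, 39.47 and 42.08 FPKM in siTEAD4 and 117.73, 93.46 and 108.83 FPKM in Control, 37.7% of the Control mean (-1.38 ± 0.0968, adjusted p = 1.82e-05). For both genes Control 2 was the lowest Control library and still stood above all siTEAD4 libraries. Together with ADAM15 they held 76.7% ± 0.245 of the summed ADAM FPKM in siTEAD4 and 82.0% ± 1.11 in Control (SD, n = 3 each).

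ADAM17, which releases TNF and ligands of the EGF receptor and shares many substrates with ADAM10, did not pass. It stood at 8.68, 9.33 and 9.23 FPKM in siTEAD4 and 15.94, 7.53 and 13.68 FPKM in Control. Control 2 lay below every siTEAD4 library and Control 1 and 3 above them (-0.35, 95% interval -0.85 to 0.15, adjusted p = 0.217). Without Control 2 the log2 fold change was -0.65 (adjusted p = 0.000104), without Control 1 it was -0.15 (adjusted p = 0.527). Removing the length and GC trend gave -0.41 (adjusted p = 0.0503). Its exons also overlap those of IAH1 on the opposite strand, which averaged 31.1 FPKM in siTEAD4 and 30.2 FPKM in Control. Whether ADAM17 and ADAM10 fell by different amounts was not tested.

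The meltrin genes ADAM12 and ADAM19 both fell. ADAM19 stood at 11.13, 11.55 and 11.21 FPKM in siTEAD4 and 23.4, 20.26 and 19.25 FPKM in Control (-0.83, adjusted p = 0.000186). ADAM12 stood at 9.56, 9.30 and 9.37 FPKM in siTEAD4 and 17.41, 13.38 and 16.25 FPKM in Control (-0.67, adjusted p = 0.00107). Both groups of each gene were clearly apart. ADAM15, whose disintegrin domain can bind integrins, stood at 44.51, 44.3 and 41.76 FPKM in siTEAD4 and 47.76, 66.34 and 52.52 FPKM in Control, a small difference at the edge of the threshold (-0.33, adjusted p = 0.0462). Leaving out Control 3, or any 1 siTEAD4 library, ended the call (adjusted p between 0.0879 and 0.144), as did limma with no filter (0.0811) or no trend (0.0524), and without Control 2 its log2 fold change was -0.20 (adjusted p = 0.0278). ADAM22, a neuronal receptor without protease activity, stood at 0.76, 0.71 and 0.74 FPKM in siTEAD4 and 1.98, 1.14 and 1.90 FPKM in Control (-0.61, adjusted p = 0.0056). It was the only 1 of 7 members without a catalytic site to reach 1 FPKM in a group mean; 6 of the 11 ADAM genes with such a site did.

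The ADAMTS genes were expressed at lower levels and included the only member that rose. Of the proteoglycan-cleaving enzymes, which cut versican and aggrecan, all 4 that were tested fell. ADAMTS9 (chromosome 3, 64515654 to 64688000, minus strand) stood at 3.11, 3.22 and 3.11 FPKM in siTEAD4 and 12.52, 8.53 and 10.61 FPKM in Control, 29.8% of the Control mean (-1.46 ± 0.127, adjusted p = 5.08e-05). ADAMTS15 stood at 1.10, 0.91 and 1.07 FPKM in siTEAD4 and 3.70, 3.58 and 3.00 FPKM in Control (-1.12, adjusted p = 5.16e-05). ADAMTS5, the chief aggrecanase in mouse cartilage, stood at 1.21, 1.16 and 1.22 FPKM in siTEAD4 and 3.16, 2.28 and 2.88 FPKM in Control (-0.77, adjusted p = 0.000554). In all 3 the siTEAD4 libraries lay close together and far below Control. ADAMTS1, which lies next to ADAMTS5 on chromosome 21, was the most abundant of them and fell least, with 10.57, 9.64 and 9.99 FPKM in siTEAD4 and 15.69, 11.73 and 15.92 FPKM in Control (-0.47, adjusted p = 0.0126). Its call ended without siTEAD4 2 (adjusted p = 0.0543) and without Control 3 (0.0600). ADAMTS8, on the opposite strand beside ADAMTS15 on chromosome 11, had at most 0.01 FPKM.

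ADAMTS3, a procollagen N-proteinase that also processes the precursor of VEGF-C, stood at 1.30, 1.47 and 1.38 FPKM in siTEAD4 and 6.47, 3.85 and 5.42 FPKM in Control, 26.4% of the Control mean (-1.37 ± 0.148, adjusted p = 0.000168). Its relative ADAMTS14 stood at 2.07, 1.93 and 1.78 FPKM in siTEAD4 and 2.07, 3.02 and 2.74 FPKM in Control and missed the threshold (-0.29, adjusted p = 0.0655); it passed without Control 1 (-0.41, adjusted p = 0.00846) and after rescaling to one median (-0.35, adjusted p = 0.0456). Control 1 equalled siTEAD4 1 there. ADAMTS10, which acts on fibrillin microfibrils, stood at 0.91, 0.99 and 1.02 FPKM in siTEAD4 and 2.93, 3.52 and 2.99 FPKM in Control (-1.07, adjusted p = 4.97e-05). ADAMTS13, which cuts von Willebrand factor in blood, stood at 0.95, 0.88 and 0.75 FPKM in siTEAD4 and 1.41, 1.69 and 1.79 FPKM in Control (-0.50, adjusted p = 0.00313). Both lay below Control in every siTEAD4 library. ADAMTS12, which cuts cartilage oligomeric matrix protein, stood at 2.85, 2.21 and 1.45 FPKM in siTEAD4 and 2.45, 2.52 and 1.87 FPKM in Control. These groups overlapped throughout (-0.07, 95% interval -0.44 to 0.30, adjusted p = 0.757), and the sign turned without siTEAD4 3 (0.11, adjusted p = 0.591). ADAMTS7, with the same substrate, was below the filter, at 0.557 ± 0.0635 FPKM in siTEAD4 and 1.14 ± 0.257 FPKM in Control (SD, n = 3 each); with no filter it passed (-0.46, adjusted p = 0.012).

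ADAMTS16 (chromosome 5, 5140330 to 5320304, plus strand), a secreted enzyme known from kidney and gonad, went the other way. It stood at 5.88, 5.81 and 5.68 FPKM in siTEAD4 and 3.59, 2.87 and 4.25 FPKM in Control, 162% of the Control mean (0.58 ± 0.118, adjusted p = 0.00416). Every siTEAD4 library lay above every Control library, and it passed as higher in all 12 alternatives, rescaling included. ADAMTS16 held 19.1% ± 0.528 of the summed ADAMTS FPKM in siTEAD4 and 6.86% ± 0.903 in Control (SD, n = 3 each). In siTEAD4 only ADAMTS1 stood higher among ADAMTS genes, while in Control ADAMTS1, ADAMTS9 and ADAMTS3 did by their means.

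**Figure D4:**
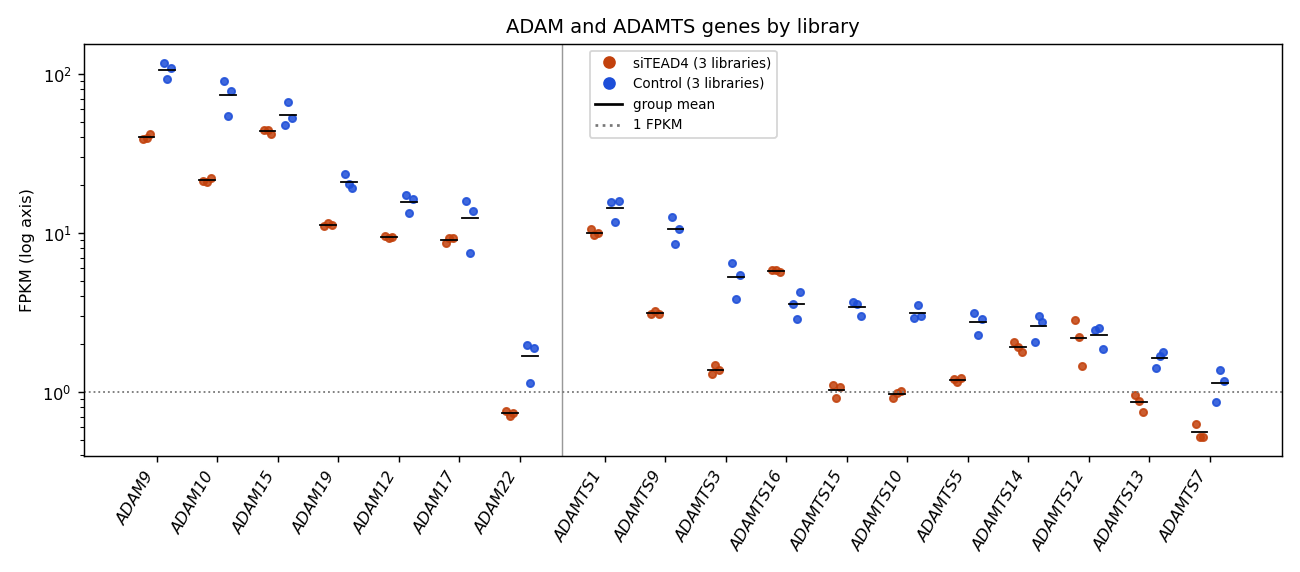
FPKM (log axis) of the 7 ADAM and 11 ADAMTS genes with a group mean of at least 1 FPKM, in the 3 siTEAD4 libraries (left of each pair) and the 3 Control libraries (right); lines are group means and the dotted line is 1 FPKM. ADAM9 and ADAM10 are lower in all siTEAD4 libraries, the lowest Control point of ADAM17 (7.53) lies below its siTEAD4 points, and ADAMTS16 is the gene whose siTEAD4 points all lie above its Control points.

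The other 29 members averaged below 1 FPKM in both groups and are reported as low. ADAM18, ADAM29 and ADAMTS20 were listed at 0 in all 6 libraries. Above 0.5 FPKM in a group mean were MMP17, MMP28 (0.183 ± 0.144 FPKM in siTEAD4, 0.513 ± 0.343 FPKM in Control), ADAM8 (0.653 ± 0.0289 and 0.517 ± 0.0643 FPKM) and ADAMTS6 (0.643 ± 0.0551 and 0.497 ± 0.110 FPKM; SD, n = 3 each). The other 25 had group means of at most 0.283 FPKM and no library above 0.45 FPKM. With no filter, none of the low genes with any value above 0 passed; MMP17 gave -0.19 (adjusted p = 0.194) and ADAM8, with the smallest p of them, gave 0.13 (adjusted p = 0.0896). Among the 30 tested members, the coefficient of variation had a median of 4.37% in siTEAD4 and 13.1% in Control, so most of the spread behind these tests came from Control.

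Among genes that activate, anchor or inhibit the proteases, more fell than rose. All counts in the lists below stand against 18.8% lower and 26.1% higher over all tested genes. Of 3 tested proprotein convertase genes, whose enzymes remove the inhibitory propeptide of ADAMs and membrane-type MMPs, PCSK5 (40.2% of the Control mean, adjusted p = 0.000264) and FURIN (-0.57, adjusted p = 0.00188) fell. FURIN stood at 16.3 ± 0.758 FPKM in siTEAD4 and 24.8 ± 2.81 FPKM in Control (SD, n = 3 each). Of 11 tested other activators and inhibitors, 8 fell and 1 rose; LCN2, which passed the filter through Control alone, was 1 of the 8, and 7 of the other 10 fell. SPOCK1, a secreted proteoglycan, fell most, to 30.3 ± 1.01 FPKM in siTEAD4, against 87.3 ± 16.3 FPKM in Control (-1.48, adjusted p = 5.44e-05). RECK, a membrane-anchored MMP inhibitor, fell too (-0.58, adjusted p = 0.00186), as did BSG, which induces MMPs (-0.63, adjusted p = 0.0031). PLAUR, the receptor of the plasminogen activator urokinase, rose (0.65, adjusted p = 0.00193), while its ligand gene PLAU fell (-0.51, adjusted p = 0.000612).

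Of 9 tested membrane partners of ADAM10 and ADAM17, 4 fell and 2 rose, against 18.8% and 26.1% of all tested genes. TSPAN10 passed the filter through Control alone, and 3 of the other 8 fell. TSPAN15, a tetraspanin that guides ADAM10 to its substrates, stood at 5.45 ± 0.917 FPKM in siTEAD4 and 16.2 ± 2.01 FPKM in Control (SD, n = 3 each; -1.42, adjusted p = 6.54e-05). The other ADAM10 tetraspanins TSPAN14 (-0.47, adjusted p = 0.00151) and TSPAN10 (-0.97, adjusted p = 0.000906) fell too, while TSPAN5, TSPAN17 and TSPAN33 did not pass. TSPAN33 (-0.30, adjusted p = 0.0523) passed as lower without Control 1 (0.0206), without Control 2 (0.0329), after rescaling (0.0356), with a replicate block (0.0433) and after the length and GC trend was removed (0.00218). TSPAN5 (-0.14, adjusted p = 0.188) passed as lower without Control 2 (0.0375) and after that trend was removed (0.0289), which also left TSPAN17 higher (0.13, adjusted p = 0.0409). Of the iRhom genes, which escort ADAM17 to the cell surface, RHBDF1 rose (0.33, adjusted p = 0.0226) and RHBDF2 fell (-0.33, adjusted p = 0.0416), and their cofactor gene FRMD8 rose (0.49, adjusted p = 0.00265). Dropping any 1 siTEAD4 library ended the call of RHBDF1 (adjusted p between 0.0545 and 0.0948), and so did rescaling (0.0645). RHBDF2 lost its call when Control 3 or any 1 siTEAD4 library was dropped (0.0918 to 0.129) and with no filter (0.0711). Without any 1 siTEAD4 library and after rescaling, 1 partner rose in place of 2.

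Related genes fell as well. Of 3 tested ADAMTS-like genes, which encode matrix proteins without a protease domain, ADAMTSL3 (-1.57, adjusted p = 6.87e-05) and PAPLN (-1.42, adjusted p = 1.12e-05) fell. Of the other zinc proteases of this superfamily, the tested BMP1, a procollagen C-proteinase (-1.11, adjusted p = 6.82e-05), and TLL2 (-0.87, adjusted p = 8.39e-05) fell. BMP1 stood at 30.3 ± 2.15 FPKM in siTEAD4 and 66.8 ± 7.60 FPKM in Control (SD, n = 3 each).

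Genes of membrane proteins that ADAM10 and ADAM17 are known to shed fell in 18 of 26 tested cases and rose in 3, where 18.8% and 26.1% of all tested genes did. MERTK passed the filter through Control alone, and of the other 25 genes 17 fell and 3 rose. Adhesion and receptor genes led the falls, with VCAM1 (-2.78), ICAM1 (-2.15), CX3CL1 (-1.57), APP (-1.56), MET (-1.45), CDH2 (-1.40), NOTCH2 (-1.36), AXL (-1.10) and EFNA1 (-1.05; limma adjusted p from 1.7e-06 to 0.000471 for these 9). APP, the precursor of amyloid and a classic ADAM10 substrate, stood at 115 ± 2.49 FPKM in siTEAD4 and 344 ± 53.9 FPKM in Control (SD, n = 3 each). The 3 that rose were HBEGF (1.14, adjusted p = 2.81e-05), TGFA (0.50, adjusted p = 0.0016) and IL6R (0.37, adjusted p = 0.0168). These encode EGF receptor ligands and the interleukin 6 receptor, known substrates of ADAM17. TNF, which ADAM17 also releases, fell (-0.86, limma adjusted p = 0.000243), as did TNFRSF1A of the same list (-0.71, adjusted p = 0.000637). Whether substrates of ADAM10 and of ADAM17 moved differently was not tested. HBEGF stood at 6.20 ± 0.250 FPKM in siTEAD4 and 2.26 ± 0.185 FPKM in Control. The call of IL6R ended without siTEAD4 1 (adjusted p = 0.0639) and without siTEAD4 3 (0.0677), and without Control 1 there were 5 that rose. Other EGF receptor ligands, AREG (-0.18) and EREG (-0.10), did not pass, although both passed as lower without Control 2 (adjusted p = 0.0177 and 0.00407). Both also passed as lower after the length and GC trend was removed (-0.32 and -0.22, limma adjusted p = 0.0391 and 0.0234).

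Genes of matrix proteins cut by MMPs and ADAMTS enzymes fell in all 13 tested cases, where 18.8% of all tested genes fell. FBN1, LUM and COL1A1 passed the filter through the Control libraries alone, so they could only be found lower. The other 10 all fell, with a median log2 fold change of -2.31, against 0.09 over all tested genes. VCAN, which encodes the ADAMTS substrate versican, was lowest relative to Control (-3.31, adjusted p = 8.91e-08 in limma); others that fell by more than 1 were FN1 (-2.82), TNC (-2.57), COL4A1 (-2.46), COL4A2 (-2.40), HSPG2 (-2.23), FBN1 (-2.08), THBS1 (-1.75) and LAMB3 (-1.37). The interstitial collagen genes COL1A2 and COL3A1, substrates of MMP1 and MMP13, and aggrecan (ACAN) were below the filter.

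**Figure D5:**
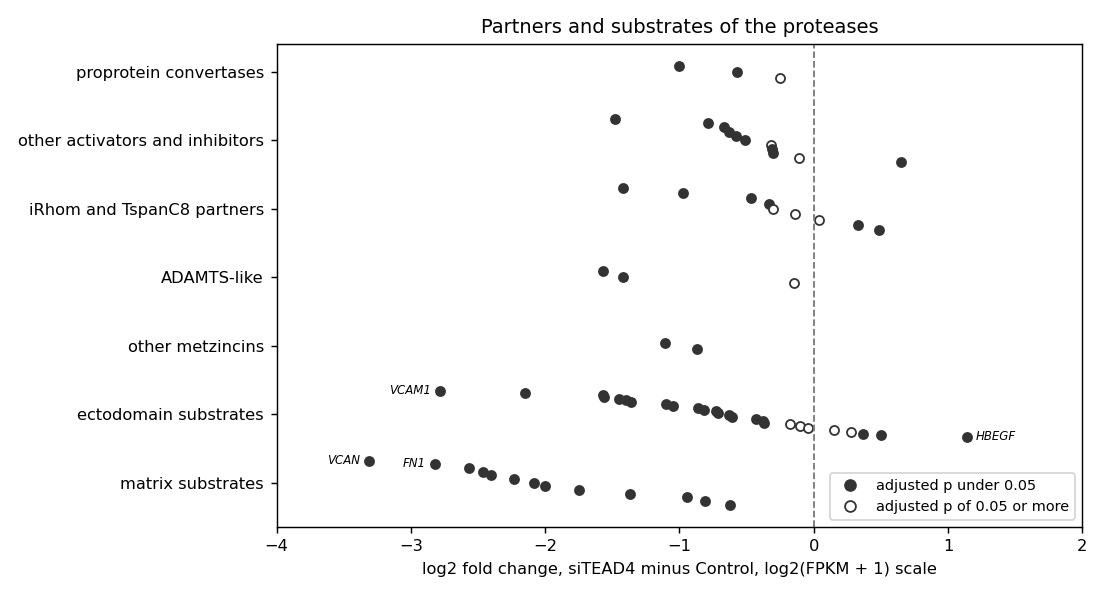
Log2 fold change, siTEAD4 minus Control, on the log2(FPKM + 1) scale, for the tested genes of 7 lists of partners and substrates; each point is a gene estimated from 3 libraries per group, filled where the adjusted p was under 0.05, and stacked only for legibility. All 13 matrix substrates lie below 0, VCAN (-3.31) farthest, while HBEGF (1.14) lies farthest to the right.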

How the data were processed

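The labels' protocols give Trizol lysis of 786-O cells and BGISEQ-500 library preparation. Per the file headers, the authors deposited FPKM values for 18126 symbols in a table per library. In Control 1 the value column is headed "gene_symbol" and names no unit. FPKM was assumed there from its gene set, its decimals and its spread of values. The submitters' processing notes name GRCh38. Aligner, counting, strand and filters: not given in the sources used here. FPKM keeps no depth, so no counting interval is given.

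Groups follow the sample titles. The fit used limma 3.58.1 (R 4.3.3) on log2(FPKM + 1), a scale that understates changes of low genes, with a mean-variance trend and group as its only term. A gene entered if 3 or more libraries reached 1 FPKM, and Benjamini-Hochberg adjusted p-values under 0.05 were called. The members and lists were chosen with earlier results of these data known. Members with a group mean of 1 FPKM or more were named, as was every called partner or substrate moving by 1 or more on the log2 scale; others named there were chosen after their values were seen, and some genes of the lists are not reported here. The script was tested on simulated data. Coordinates came from GENCODE release 29 and promoters from RefSeq (GRCh38.p14).

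The other settings tried were a block for replicate number, each library left out in turn, a pseudocount of 0.1, no filter, rescaling to one median and limma without the trend. Removing the trend of each library with length and GC content (natural splines, 5 degrees of freedom) was an alternative chosen after seeing the data, for the 97.8% of tested genes with a length.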

Additional observations from a re-analysis of the deposited data

How the results depend on the processing

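Of the 25 called members, 22 kept call and direction in all 12 alternatives; the exceptions were ADAM15, ADAMTS1 and MMP25. None of the 5 uncalled members (ADAM17, ADAMTS12, ADAMTS14, MMP1 and TIMP1) kept both its direction and its lack of a call throughout. The number of members lower was 21 to 25 without 1 library and 23 to 25 in the other settings, against 24. With no filter, 2 members (ADAMTS16 and TIMP4) and 1 TIMP gene were higher, against 1 and 0. Without 1 library, 1801 to 4034 of all genes were higher, against 2982, and 1614 to 2655 were lower, against 2141. Higher genes made up 58.2% of all calls as deposited and 46.9% after rescaling to one median. Direction turned for ADAMTS12 without siTEAD4 3 (range without 1 library -0.22 to 0.11) and after the length and GC trend was removed (0.02), for TIMP1 without Control 2 (-0.20 to 0.02), for BTC without siTEAD4 1 (0.01) and without Control 3 (-0.13 to 0.04), and for TSPAN17 without Control 1 (-0.02 to 0.12) and after rescaling (-0.03), none of which passed; the cause was not tested. A pseudocount of 0.1 enlarged the fall of genes near 1 FPKM, such as ADAM22 (-1.05) and ADAMTS13 (-0.85), and with length and GC trends removed ADAMTS13 stood at -0.31 (adjusted p = 0.00867). Replicate numbers did not pair the libraries: deviations of same-numbered libraries correlated at -0.163, 0.272 and 0.090 across genes. With a replicate block, 25 members were lower and 1 higher, MMP1 passed (-0.70, adjusted p = 0.00689), and 3015 genes were higher and 2165 lower. FPKM values carry no depth, so the precision of genes near or below 1 FPKM is unknown.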
